A study of Mus musculus with 16 samples.

Results

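Genes that mark monocytes and macrophages, or serve their sensing and engulfing of material, were followed in sorted cells of the mouse olfactory mucosa. The 10 genes were Tyrobp, Fcer1g, Lyz2, Ly6c2, Csf1r, C1qa, C1qb, Cd68, Aif1 and Itgam, taken by gene symbol from the array's annotation, with the probe set of highest mean over the 16 arrays. Of these, 9 were found among 19505 genes, each with 1 probe set. Cd68, a lysosomal membrane protein of macrophages, was not analysed here.

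In the Kentucky assay, cells are sorted from the olfactory mucosa of S100a5-tauGFP mice, whose green fluorescent protein (GFP) reporter follows S100a5, a gene that olfactory sensory neurons raise when active. All 24 mice were C57BL/6, of both sexes and 7 to 12 weeks old, and each stayed alone for 40 h in a clean air chamber. From 26 h on they received 10 s pulses every 20 min, either of filtered air (vehicle) or of isoamyl acetate mixed with whiskey lactone (odor). Cells of 3 mice were pooled, and each of 8 pools (4 per treatment) gave a library titled GFP+ and a library titled GFP-, so that there were 4 groups of 4 libraries. A library is thus a mean over 3 mice and over every cell type that passed the sort. The sources used here name no gate on blood cells.

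Monocytes are blood leukocytes that enter tissues and can become macrophages, which clear dead cells. In the olfactory mucosa macrophages remove the debris of neurons that are constantly lost and replaced. Tyrobp and Fcer1g are small adaptor proteins that carry the signal of immune receptors to the kinase Syk. Csf1r is the receptor through which the cytokines Csf1 and Il34 keep macrophages alive, and C1qa and C1qb are chains of C1q, which opens the classical complement cascade. Lyz2, Itgam, Tyrobp and Fcer1g are also expressed by neutrophils, so they do not separate those cells from monocytes. Whether Ly6c2 separates them in these libraries was not tested.

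S100a5 and the library labels bear on every direction given. The title of a sample and its tag for cell type disagreed on the fraction in 16 of 16 samples. Groups follow the titles, and S100a5 ran against them, at 15.27 ± 0.24 in the odor libraries titled GFP+ and 16.43 ± 0.27 in those titled GFP- (log2, SD, n = 4 each; difference -1.16 ± 0.36, SE, limma adjusted p = 0.0625 over 16 arrays and 0.000588 over 14). If the tags were right, every fraction difference would change sign. In vehicle pool 3 each library resembled the other fraction of the remaining pools, so each result is given for all 16 arrays and for the 14 without that pool. Omp, a marker of mature olfactory sensory neurons, was high in every group and differed between the odor fractions by -0.01 ± 0.10 (SE, limma adjusted p = 0.956). Values are the deposited log2 values, which ran from 1.69 to 19.4. The median over negative probe sets was 5.46 and their 95th percentile 9.79. Of the 9 genes, 8 had a mean above that median and 1 above that percentile, Aif1 being the one below the median.

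The transcription factor Spi1 (PU.1) binds a purine-rich box in the promoters of many monocyte genes, and the promoters of Ly6c2, Itgam and C1qb are printed here because the first and second of these genes passed between the fractions and C1qb did not. RefSeq promoter sequence of build GRCm38.p6 was found for 6 of the 9 genes. The letters GAGGAA, or TTCCTC for the other strand, were searched in the 250 bases before each start and are in capitals in the 150 bases printed here, which end at the base before the start.
Ly6c2, chr15:75111972-75112121, minus strand: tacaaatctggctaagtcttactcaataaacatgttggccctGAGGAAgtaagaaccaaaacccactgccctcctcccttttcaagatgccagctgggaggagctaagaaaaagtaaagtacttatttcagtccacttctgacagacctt
Itgam, chr7:128062490-128062639, plus strand: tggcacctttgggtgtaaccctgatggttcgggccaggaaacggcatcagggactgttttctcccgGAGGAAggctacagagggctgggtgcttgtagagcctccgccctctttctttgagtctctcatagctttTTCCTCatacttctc
C1qb, chr4:136886201-136886350, minus strand: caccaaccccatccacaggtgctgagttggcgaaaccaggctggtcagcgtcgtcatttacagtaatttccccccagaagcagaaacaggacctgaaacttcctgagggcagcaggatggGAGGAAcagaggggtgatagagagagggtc
The window held the letters 1 time for Ly6c2, 2 times for Itgam, 1 time for C1qb and 1 time for Aif1, and 0 times for Lyz2 and Fcer1g. That is 4 of 6 genes, beside 6252 of 27025 promoters of all genes (23.1%). A match is a description of letters and not a binding site.

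The first comparison asked how the 9 genes differed between the titled fractions of odor-exposed mice. Ly6c2, Lyz2, Itgam, Fcer1g and Tyrobp were higher in the libraries titled GFP+ by 2.70 to 8.17 on the log2 scale and passed the threshold over all 16 arrays. Csf1r joined them without vehicle pool 3. Aif1, C1qb and C1qa were higher by 1.26, 0.85 and 0.33 and passed in neither fit. In bulk libraries such as these, fewer cells of a type and less RNA per cell cannot be told apart.

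Over all 16 arrays 5 of 9 members were called higher and 0 lower, where limma called 6.97% of all 19505 genes (4.57% higher and 2.39% lower). Without vehicle pool 3 it was 6 of 9, where 13.2% of all genes were called (8.59% higher and 4.59% lower). The median difference of the 9 was 2.70 beside -0.08 for all genes. For 6 of 9 every odor library titled GFP+ lay above every one titled GFP-, as it did for 8.9% of all genes. With the pool of mice as a block over all 16 arrays, 0 of 9 passed (8 at an unadjusted p under 0.05; adjusted p from 0.161 to 0.268), and 0.0103% of all genes did. With that block on the 14 arrays 7 of 9 passed, the added one being Aif1 (adjusted p = 0.0130), and 13.6% of all genes did (8.77% higher and 4.79% lower). Leaving out 1 library at a time kept the size of these differences over 16 arrays, at 2.53 to 2.96 for Tyrobp, 4.42 to 5.13 for Fcer1g, 4.87 to 5.73 for Lyz2, 7.80 to 8.76 for Ly6c2 and 4.60 to 5.71 for Itgam, while the calls depended on the library left out. Without odor replicate 1, 2 or 3 of either title, or odor replicate 4 titled GFP-, each of the 5 was lost, and Tyrobp also without vehicle replicate 1 or 2 titled GFP- (highest adjusted p from 0.0866 to 0.115). In the fits without one of those odor libraries 2 or 3 of all 19505 genes passed. Over 14 arrays the 5 genes passed in 14 of 14 such fits. Centring each array on its median brought the all-gene median from -0.08 down to -0.43 and turned the calls from 65.6% higher to 17.7% higher, and quantile normalization turned them to 53.2% higher. Under both scalings the same number, 5 of 9, was called higher over all 16 arrays, and C1qa turned to -0.02 when centred.

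**Figure D1:**
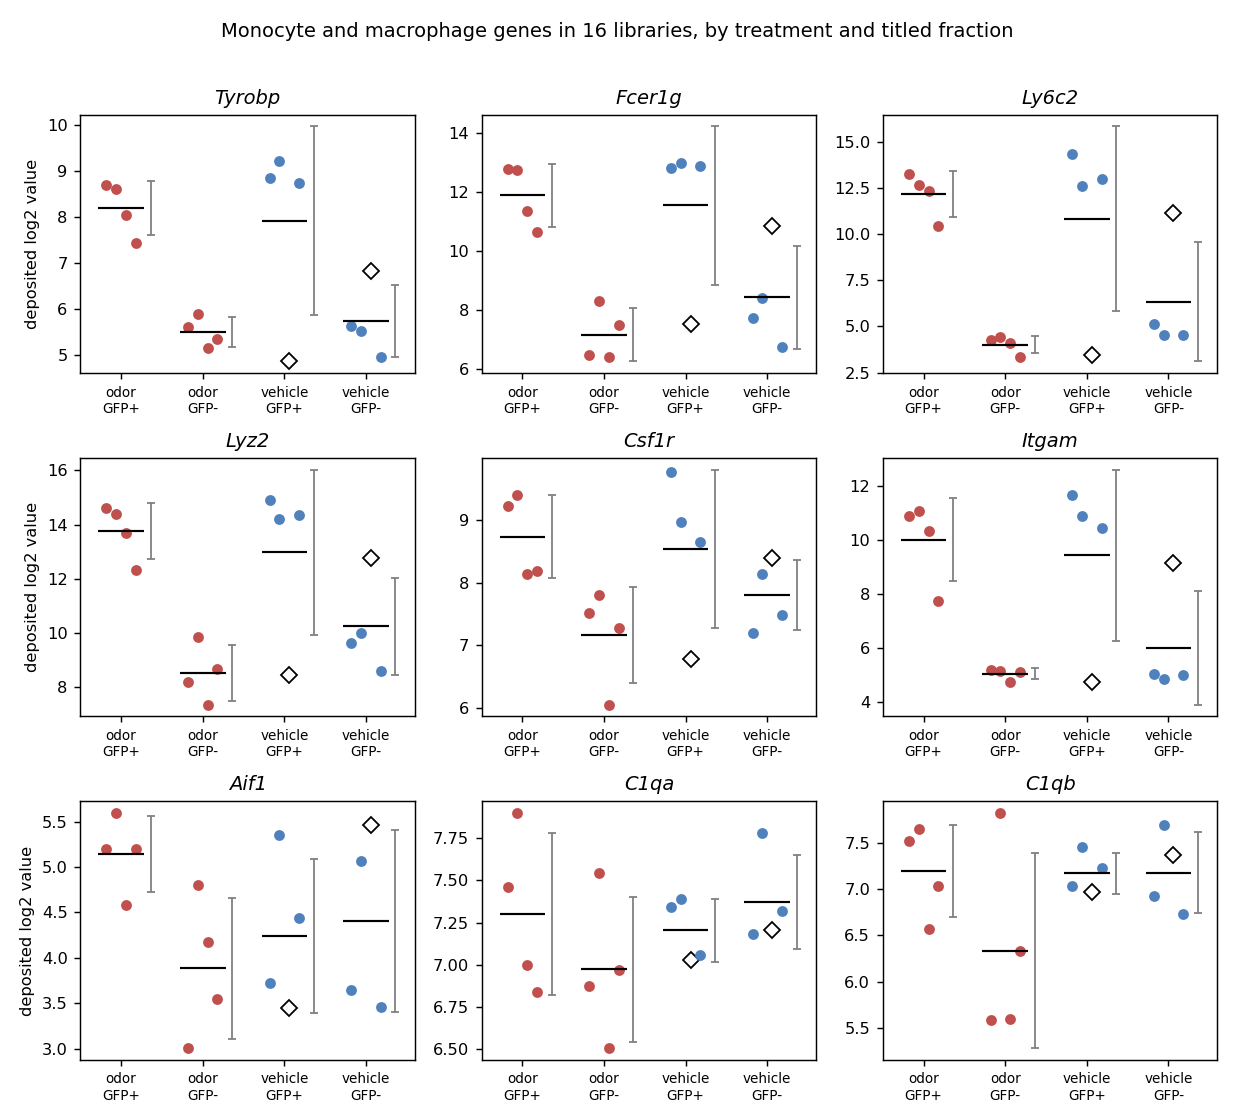
Deposited log2 value of each of the 9 genes (vertical axis, 1 panel per gene with its own scale) in the 4 libraries of each group (horizontal axis, titled fractions). Points are libraries in the order of replicates 1 to 4, open diamonds are vehicle pool 3, black lines are means over 4 and grey bars 1 SD. In 6 panels all odor libraries titled GFP+ lie above all titled GFP-, and the diamonds lie on the opposite side from the other vehicle libraries.

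Among the adaptors, Tyrobp (also called DAP12) was 8.71, 8.62, 8.04 and 7.43 across odor titled GFP+ replicates 1 to 4 and 5.61, 5.89, 5.14 and 5.35 in those titled GFP-. Every odor library titled GFP+ lay above every one titled GFP-, with replicate 4 the lowest of its group. The values titled GFP- lay around the median of the negative probe sets (5.46), so the size of the difference is taken against values near background. The difference was 2.70 ± 0.73 (SE, limma adjusted p = 0.0400 over 16 arrays and 2.90e-06 over 14). In vehicle mice Tyrobp was 8.86, 9.23, 4.85 and 8.74 titled GFP+ and 5.63, 5.52, 6.83 and 4.95 titled GFP-. Replicate 3 was the lowest of the first group and the highest of the second, and without it the groups did not overlap. The vehicle difference was 2.19 ± 0.73 (SE, limma adjusted p = 0.478) over 16 arrays and 3.58 ± 0.31 (SE, limma adjusted p = 1.06e-06) over 14.

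Fcer1g, the gamma chain shared by Fc receptors for IgG and IgE, was 12.77, 12.74, 11.35 and 10.65 across odor titled GFP+ replicates 1 to 4 and 6.47, 8.29, 6.40 and 7.48 titled GFP-. The odor groups did not overlap and differed by 4.72 ± 1.10 (SE, limma adjusted p = 0.0290 over 16 arrays and 6.44e-06 over 14). In vehicle mice it was 12.80, 12.96, 7.52 and 12.87 titled GFP+ and 7.72, 8.41, 10.84 and 6.75 titled GFP-. Without replicate 3 the vehicle libraries titled GFP+ were close together, at 12.88 ± 0.08 (SD, n = 3). The vehicle difference was 3.11 ± 1.10 (SE, limma adjusted p = 0.478) over 16 arrays and 5.25 ± 0.58 (SE, limma adjusted p = 1.30e-05) over 14.

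Ly6c2, a surface protein that is high on classical, inflammatory monocytes, was 13.31, 12.69, 12.33 and 10.44 across odor titled GFP+ replicates 1 to 4 and 4.26, 4.41, 4.09 and 3.33 titled GFP-. In vehicle mice it was 14.37, 12.62, 3.44 and 13.02 titled GFP+ and 5.12, 4.54, 11.17 and 4.51 titled GFP-. Apart from vehicle replicate 3, every library titled GFP- lay below the median of the negative probe sets and every one titled GFP+ above their 95th percentile, so the size of the difference is taken against values that are not above background. The difference was 8.17 ± 1.92 (SE, limma adjusted p = 0.0295) in odor over 16 arrays and 8.17 ± 0.50 (SE, limma adjusted p = 2.02e-08) over 14. In vehicle it was 4.53 ± 1.92 (SE, limma adjusted p = 0.483) over 16 and 8.61 ± 0.58 (SE, limma adjusted p = 1.03e-07) over 14. Ly6c1, a near-identical neighbour whose transcripts the probes may share, differed by 7.63 ± 1.73 (SE, limma adjusted p = 0.0286) in odor over 16 arrays, and the values of the pair are therefore uncertain as to which gene they measure.

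Lyz2, lysozyme of myeloid cells, was 14.61, 14.40, 13.69 and 12.33 across odor titled GFP+ replicates 1 to 4 and 8.19, 9.83, 7.33 and 8.64 titled GFP-. The groups did not overlap, and the difference was 5.26 ± 1.21 (SE, limma adjusted p = 0.0286 over 16 arrays and 3.14e-06 over 14). In vehicle mice it was 14.92, 14.22, 8.42 and 14.36 titled GFP+ and 9.63, 9.97, 12.76 and 8.57 titled GFP-. Replicate 3 again stood on the opposite side, and the difference was 2.75 ± 1.21 (SE, limma adjusted p = 0.494) over 16 arrays and 5.11 ± 0.60 (SE, limma adjusted p = 2.46e-05) over 14. Lyz1, the lysozyme of Paneth cells and a close relative whose signal may be shared, differed by 1.74 ± 0.53 in odor (SE, limma adjusted p = 0.0600 over 16 arrays and 0.000766 over 14).

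Itgam (CD11b), which pairs with Itgb2 to form complement receptor 3 on monocytes, macrophages and neutrophils, was 10.90, 11.07, 10.33 and 7.75 across odor titled GFP+ replicates 1 to 4. Itgam read 5.18, 5.16, 4.75 and 5.12 in the odor group titled GFP-, all below the median of the negative probe sets, so that the size of the difference is again taken against values not above background. Replicate 4 titled GFP+ was well below the other 3 of its group, yet the groups did not overlap. The difference was 4.96 ± 1.29 (SE, limma adjusted p = 0.0361 over 16 arrays and 6.83e-06 over 14). In vehicle mice Itgam was 11.67, 10.88, 4.77 and 10.44 titled GFP+ and 5.03, 4.85, 9.14 and 5.0 titled GFP-. That difference was 3.43 ± 1.29 (SE, limma adjusted p = 0.478) over 16 arrays and 6.03 ± 0.61 (SE, limma adjusted p = 5.89e-06) over 14. The promoters of Itgam and Ly6c2 printed above both hold the searched letters, and that of Lyz2 does not.

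Csf1r showed a smaller fraction difference. It was 9.23, 9.40, 8.14 and 8.19 across odor titled GFP+ replicates 1 to 4 and 7.51, 7.80, 6.05 and 7.28 titled GFP-. The groups stayed apart by the gap between 8.14 and 7.80, and the difference of 1.58 ± 0.55 (SE) had a limma adjusted p = 0.0973 over 16 arrays and 0.0126 over 14. In vehicle mice Csf1r was 9.77, 8.96, 6.77 and 8.64 titled GFP+ and 7.19, 8.14, 8.39 and 7.48 titled GFP-. The vehicle difference was 0.74 ± 0.55 (SE, limma adjusted p = 0.695) over 16 arrays and 1.52 ± 0.45 (SE, limma adjusted p = 0.0413) over 14. On the 14 arrays the odor call was lost without odor replicate 2 titled GFP+ (adjusted p = 0.0502), and the vehicle call was kept in 9 of 14 fits that each left out 1 library. It was lost without vehicle replicate 1 or 2 titled GFP+, vehicle replicate 1 or 4 titled GFP- or odor replicate 4 titled GFP- (highest adjusted p = 0.194).

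Aif1 (Iba1), an actin-bundling protein of macrophages and microglia, lay near or below the median of the negative probe sets in every library. It was 5.20, 5.60, 4.58 and 5.19 across odor titled GFP+ replicates 1 to 4 and 3.01, 4.81, 4.17 and 3.55 titled GFP-. The groups overlapped in 1 library, and the difference was 1.26 ± 0.51 (SE, limma adjusted p = 0.155 over 16 arrays and 0.0728 over 14). In vehicle mice it was 3.72, 5.35, 3.45 and 4.44 titled GFP+ and 3.65, 5.07, 5.46 and 3.46 titled GFP-, and the difference was -0.17 ± 0.51 (SE, limma adjusted p = 0.940) over 16 arrays and 0.45 ± 0.50 (SE, limma adjusted p = 0.660) over 14.

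The complement chains C1qa and C1qb, made by tissue macrophages, did not pass as different between fractions. C1qa was 7.46, 7.90, 7.00 and 6.84 across odor titled GFP+ replicates 1 to 4 and 6.87, 7.54, 6.50 and 6.97 titled GFP-. Its difference had a 95% interval from -0.19 to 0.85 (limma adjusted p = 0.486) over 16 arrays. In vehicle mice C1qa was 7.34, 7.39, 7.03 and 7.06 titled GFP+ and 7.18, 7.78, 7.20 and 7.32 titled GFP-, with a 95% interval from -0.69 to 0.35 over 16 arrays and from -0.78 to 0.45 over 14. All 16 values lay within 6.50 to 7.90, and vehicle pool 3 lay close to another library of its group in both fractions. That range is between the median (5.46) and the 95th percentile (9.79) of the negative probe sets, so C1qa was not clearly above background.

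C1qb was 7.52, 7.65, 6.57 and 7.03 across odor titled GFP+ replicates 1 to 4 and 5.59, 7.82, 5.60 and 6.33 titled GFP-. Replicate 2 titled GFP- was the highest of all 8 odor libraries, and without it the difference of 0.85 ± 0.40 (SE, limma adjusted p = 0.234 over 16 arrays and 0.218 over 14) became 1.35 (limma adjusted p = 0.0580 without it over 16 arrays, and 0.00621 without it over 14). In vehicle mice C1qb was 7.03, 7.45, 6.96 and 7.23 titled GFP+ and 6.92, 7.69, 7.36 and 6.73 titled GFP-, a difference of -0.01 ± 0.40 over 16 arrays and 0.12 ± 0.47 over 14 (SE, limma adjusted p = 0.997 and 0.916). C1qc, the C1q chain outside the 9, differed by 0.43 ± 0.27 in odor (SE, limma adjusted p = 0.401). The promoter of C1qb printed above holds the searched letters, as do those of Ly6c2 and Itgam.

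In vehicle mice limma called 0 of 9 members and 0% of all genes over 16 arrays (5 members and 1912 genes at an unadjusted p under 0.05). Without vehicle pool 3 it called 6 of 9 higher and 0 lower, where 11.2% of all genes were called (7.86% higher and 3.32% lower). The groups of these 6 did not overlap, as was so in that direction for 12.6% of all genes. They were Tyrobp, Fcer1g, Lyz2, Ly6c2, Itgam and Csf1r, the genes also called in odor on those arrays. The fits share an estimate of the spread. With the pool as a block, 0 of 9 passed over 16 arrays (2 at an unadjusted p under 0.05) and 6 of 9 over 14, where 11.9% of all genes did (8.2% higher and 3.67% lower). The median difference of the 9 was 3.58 over 14 arrays, beside -0.10 for all genes.

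Read pool by pool, 7 genes kept 1 direction with respect to S100a5. Tyrobp, Fcer1g, Lyz2, Ly6c2, Csf1r, Aif1 and Itgam were each higher in the library with less S100a5 in 8 of 8 pools, vehicle pool 3 included, as were 9.98% of all genes. C1qb was so in 6 of 8 pools and C1qa in 5 of 8. In the 7 pools other than vehicle pool 3 the Ly6c2 difference ranged from 7.11 to 9.25, that of Tyrobp from 2.08 to 3.79 and that of Csf1r from 0.82 to 2.58. In vehicle pool 3 those differences were -7.73, -1.98 and -1.62. C1qa ranged from -0.39 to 0.59 over the other 7 pools and was -0.18 in vehicle pool 3.

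**Figure D2:**
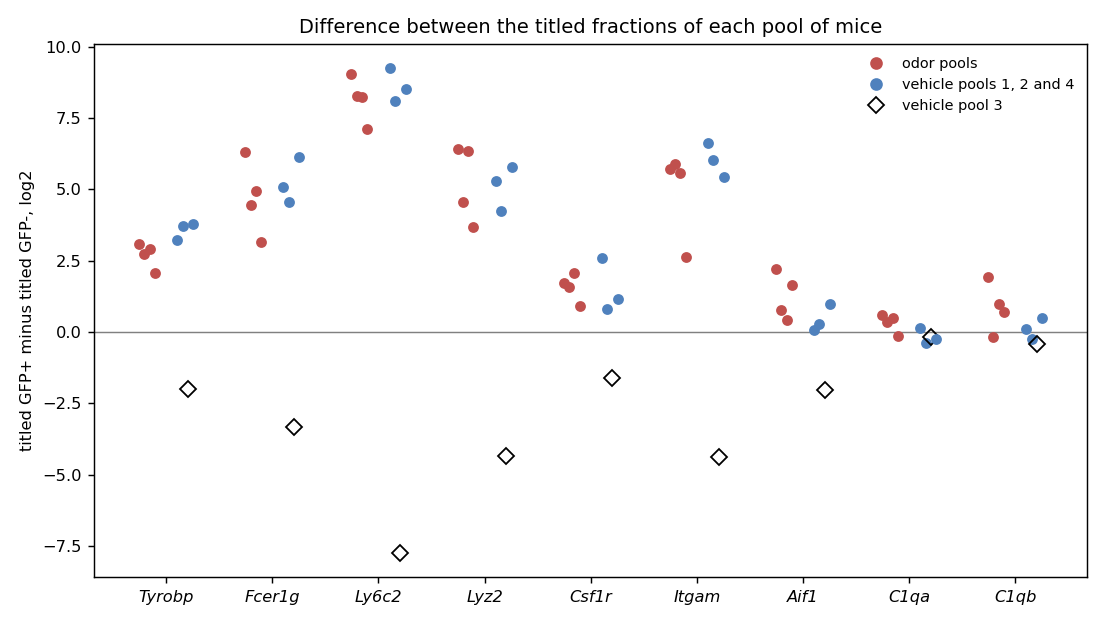
Difference between the titled GFP+ and titled GFP- library of each pool (vertical axis, log2) for each of the 9 genes (horizontal axis). Red points are odor pools, blue points vehicle pools 1, 2 and 4, and open diamonds vehicle pool 3. For 7 genes the 7 filled points lie above 0 and the diamond below, and the points of C1qa and C1qb lie on both sides of 0.

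Single libraries also stood out across several of the 9 genes. Odor replicate 4 titled GFP+ was the lowest of its group for 6 genes, and replicate 3 for the other 3 (Csf1r, C1qb and Aif1). Odor replicate 2 titled GFP- was the highest of its group for 8 of 9 genes, Itgam being the exception. Vehicle replicate 3 was the lowest titled GFP+ library for 9 of 9 genes and the highest titled GFP- library for 7 of 9. The mean over the 9 genes ran from 8.43 to 10.01 in the odor libraries titled GFP+ and from 5.56 to 6.84 in those titled GFP-.

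Receptors that signal through Tyrobp or Fcer1g, and the kinases below them, were next. Of the 16 such receptors measured, 6 were higher and 0 lower in odor titled GFP+ over 16 arrays, and 10 higher over 14, at a median of 1.51. Of all genes, 4.57% were called higher and 2.39% lower over 16 arrays, and 8.59% and 4.59% over 14. For vehicle mice without pool 3 the shares were 7.86% and 3.32%. These shares stand beside the counts of every list below. Clec4e (Mincle), which senses mycobacterial glycolipid and damaged cells, was higher by 4.02 ± 0.81 (SE), Trem1, an amplifier of myeloid inflammation, by 4.14 ± 1.04, Cd300ld by 3.31 ± 0.71 and the IgG receptor Fcgr4 by 1.49 ± 0.36 (limma adjusted p from 0.0286 to 0.0330 over 16 arrays). Of 12 kinases and effectors, 7 were higher over 16 arrays and 10 over 14, with 0 lower and a median of 2.16. Among them were the Src-family kinase Fgr (2.50 ± 0.59), the exchange factor Vav1 (3.42 ± 0.76), the GTPase Rac2 of blood cells (5.73 ± 1.41) and the adaptor Lcp2, or SLP-76 (1.81 ± 0.45, SE each, limma adjusted p from 0.0286 to 0.0320). In vehicle mice without pool 3 the counts were 10 of 16 and 10 of 12, with medians of 1.73 and 2.58. List means in odor titled GFP- ran from 4.72 to 5.16 for the receptors and from 5.24 to 5.64 for the kinases and effectors. These lay below or near the median of the negative probe sets (5.46). The size of the differences is thus partly taken against values not above background. With the pool as a block over 16 arrays, 0 of these genes, and 0 of any list named below, passed in odor, as for the 9 members.

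Growth factor receptors and transcription factors of the Csf1r pathway were divided. Of 11 measured, 4 were higher in odor over 16 arrays and 6 over 14, with 0 lower and a median of 0.76. Spi1 was 15.02, 14.50, 13.76 and 12.57 across odor titled GFP+ replicates 1 to 4 and 8.52, 9.01, 7.12 and 8.02 titled GFP-, so the groups did not overlap. Its difference was 5.80 ± 1.43 (SE, limma adjusted p = 0.0320), and those of Csf3r, the G-CSF receptor of neutrophils, Csf2ra, the GM-CSF receptor, and Runx1, a factor of blood cell development, were 4.41 ± 0.95, 3.35 ± 0.79 and 3.23 ± 0.83 (SE, limma adjusted p from 0.0286 to 0.0345). The ligands Csf1 and Il34 differed by 0.46 and 0.10 (limma adjusted p = 0.425 and 0.818 over 16 arrays). In vehicle mice without pool 3, 5 of 11 were higher.

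Of 12 complement and integrin partners of C1qa, C1qb and Itgam, 3 were higher over 16 arrays, 4 over 14 and 0 lower, at a median of 0.43. Itgb2, the beta chain that pairs with Itgam, was higher by 4.88 ± 1.22, and the complement stabilizer Cfp (properdin) and the C5a receptor C5ar1 by 1.48 ± 0.39 and 1.50 ± 0.43 (SE, limma adjusted p from 0.0329 to 0.0480). Itgax (CD11c), the alpha chain of complement receptor 4, differed by 0.77 ± 0.30 and passed on the 14 arrays (SE, limma adjusted p = 0.137 over 16 and 0.0428 over 14, or 0.0572 with the pool as a block). Of 16 lysosome and phagocytosis genes 5 were higher over 16 arrays, 9 over 14 and 0 lower, at a median of 1.54. The oxidase subunits Cyba, Cybb and Ncf1, which make the oxidative burst of phagocytes, were higher by 2.55 ± 0.64, 4.54 ± 1.16 and 5.19 ± 1.35, and the lysosomal protein Laptm5 by 3.95 ± 1.09 (SE, limma adjusted p from 0.0330 to 0.0428). Centring lowered the medians of these lists to 0.08 and 1.19. It called 1 complement and 3 lysosome genes lower over 16 arrays, beside 4722 of all 19505 genes.

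Lists of markers for separate myeloid cell types were counted next, and differences between lists were not tested. Of 15 tissue macrophage markers, 1 was higher in odor over 16 arrays, Cd14, the lipopolysaccharide co-receptor that monocytes also carry (3.20 ± 0.78, SE, limma adjusted p = 0.0311). Over 14 arrays 3 were higher, the others being Adgre1, a surface receptor of macrophages (0.85) and Cx3cr1, the fractalkine receptor (1.08; limma adjusted p = 0.0345 and 0.0233), of which Adgre1 did not pass with the pool as a block (adjusted p = 0.0682). Apoe differed by 0.96 (limma adjusted p = 0.134 over 14 arrays). List means ran from 5.89 to 6.36 in odor titled GFP+ and from 5.48 to 6.09 in odor titled GFP-, near the median of the negative probe sets (5.46). Of the 15 genes, 9 had a mean over the 16 arrays above 5.46, so the list is partly not measured above background. The median difference of the list was 0.27, and -0.08 when arrays were centred. With centring 3 were called lower over 16 arrays, as were 4722 of all 19505 genes. As deposited, 4.57% of all genes were called higher over 16 arrays and 8.59% over 14. In vehicle mice without pool 3 Cd14 was higher (3.14 ± 0.52) and Vsig4, a complement receptor of resident macrophages named after its values were seen, was lower (-0.71, limma adjusted p = 0.0259).

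Classical monocyte markers were higher in odor for 7 of 11 genes over 16 arrays and 10 of 11 over 14, with 0 lower and a median of 2.31. In vehicle mice without pool 3, 11 of 11 were higher. Ccr2, the receptor that brings monocytes out of the marrow, was 9.29, 8.54, 7.64 and 7.13 across odor titled GFP+ replicates 1 to 4 and 4.13, 3.75, 3.37 and 3.38 titled GFP-. The groups did not overlap, and the difference was 4.49 ± 1.23 (SE, limma adjusted p = 0.0426). The values titled GFP- were all below the median of the negative probe sets (5.46), so that size is taken against values not above background. Fibronectin (Fn1), interferon-induced Ifitm3 and Plac8 were higher by 6.29 ± 1.72, 4.50 ± 1.01 and 1.86 ± 0.51 (SE, limma adjusted p from 0.0286 to 0.0422).

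Neutrophil markers were higher for 13 of 13 genes in odor, over 16 arrays and over 14, and for 13 of 13 in vehicle without pool 3, with medians of 6.85 and 7.72. Retnlg, S100a9, Mpo (myeloperoxidase) and the cytokine Il1b were higher in odor by 9.65, 7.84, 5.98 and 4.64 (limma adjusted p = 0.0286 each over 16 arrays). The mean level of the list ran from 10.22 to 13.46 in odor titled GFP+, 4.61 to 6.02 in odor titled GFP-, 12.84 to 13.87 in vehicle titled GFP+ and 5.39 to 6.63 in vehicle titled GFP-, without pool 3. In vehicle pool 3 it was 4.84 titled GFP+ and 11.15 titled GFP-. Low list means, such as 4.61 in odor titled GFP- and 4.84 in vehicle pool 3 titled GFP+, lay below the median of the negative probe sets (5.46). The size of these differences is thus partly taken against values not above background. These markers moved with Tyrobp, Fcer1g, Lyz2, Ly6c2 and Itgam, and their part in those results was not tested.

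Other cell types the sort could hold were counted in the same way, over 16 and then 14 arrays in odor. In those fits 4.57% and 8.59% of all genes were called higher, and 2.39% and 4.59% lower. Of 11 genes listed for lymphoid cells 4 and 7 were higher (Cd3e of T cells 2.42, Nkg7 of NK cells 1.43, and Ptprc, or CD45, which all leukocytes carry, 4.66), with list means of 5.40 to 6.98 titled GFP+ and 4.46 to 4.72 titled GFP-. Of 10 sustentacular and microvillar genes 7 and 9 were higher (Krt18 3.75, Trpm5 3.28), with list means of 9.11 to 10.38 and 6.66 to 7.56. Of 9 mast cell and basophil genes 2 and 3 were higher (Cpa3 1.97 and Gata2 1.26 in both, Mcpt8 1.12 over 14), with list means of 3.88 to 4.62 and 3.70 to 3.91. Of 9 dendritic cell genes 2 were higher in both fits, H2-Ab1 (3.92) and Cd209a (1.60), with list means of 5.51 to 5.74 and 4.81 to 4.97. Of 5 red blood cell and platelet genes 0 and 1 were higher (Slc4a1 2.46; list means of 6.41 to 7.28 and 6.05 to 6.30), and of 9 fibroblast and endothelial genes 0 and 1 (Dcn 1.31; 4.66 to 4.95 and 4.51 to 5.02). Of 10 mature olfactory neuron genes 1 was lower in both fits, Ano2 (-0.51), with list means of 16.05 to 16.19 and 16.13 to 16.37. With arrays centred, 4 of these 10 neuron genes were lower over 16 arrays and 9 over 14, at a median of -0.45. So were 4722 and 8734 of all 19505 genes. Centring over 14 arrays also called lower 3 mast cell, 1 dendritic cell, 2 red blood cell and platelet and 2 fibroblast and endothelial genes. The list means of mast cell and basophil genes and of fibroblast and endothelial genes lay below the median of the negative probe sets (5.46) in both odor fractions. A mean over the 16 arrays above 5.46 was found for 1 of 9 genes in each of those lists. It was found for 3 of 11 lymphoid and 4 of 9 dendritic cell genes, so these counts rest largely on values not above background. The part of any cell type named here in the results on the 9 genes was not tested.

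**Figure D3:**
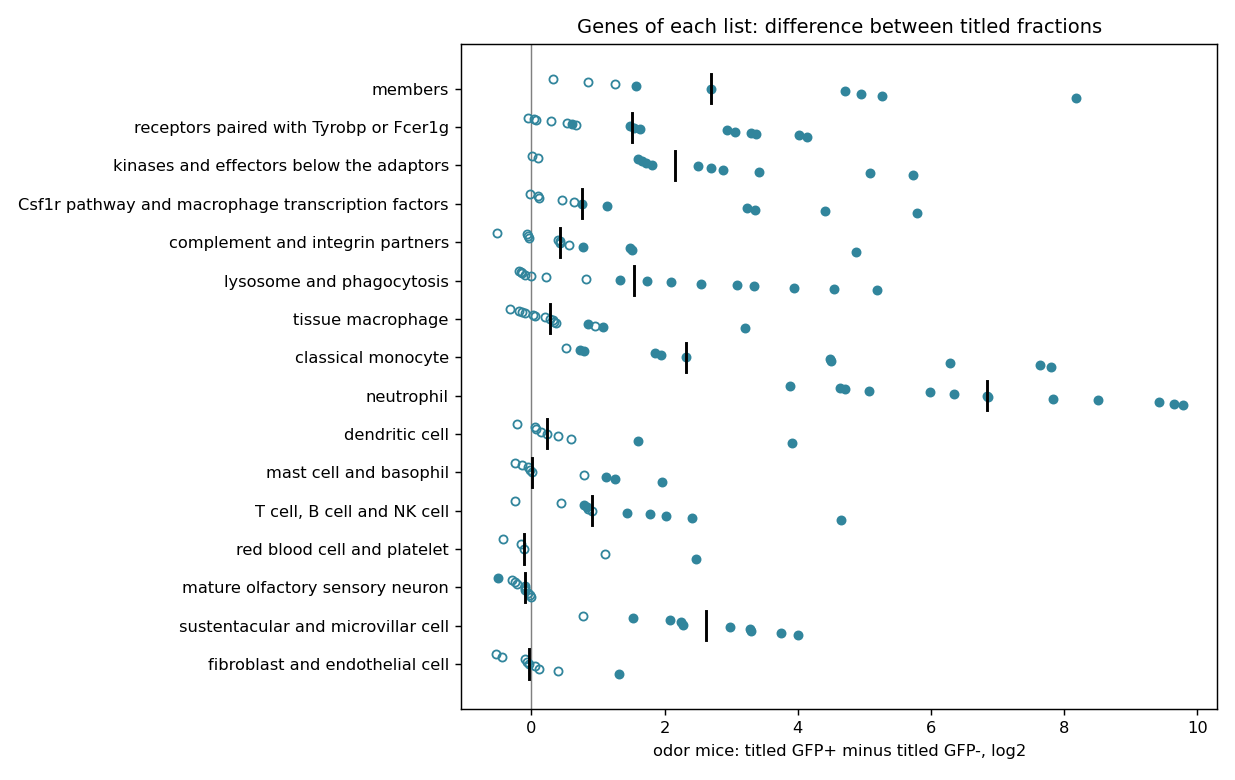
Difference between odor libraries titled GFP+ and titled GFP- (horizontal axis, log2) for every measured gene of each list (vertical axis), the 9 genes being the row named members. Each point is a gene, filled where limma's adjusted p was under 0.05 on the 14 arrays, and black bars are list medians. Neutrophil genes lie farthest to the right with a median of 6.85, and most tissue macrophage genes lie near 0 with a median of 0.27.

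For 4 genes the nearest patterns were sought by the root mean square difference of centred values over the 16 libraries, a description with no test in which all genes share libraries. Tnfaip3 (0.29), Mcemp1 (0.35) and Mgst1 (0.37) were nearest to Tyrobp, where the median over genes was 1.66. Ly6c1 (0.52), S100a9 (0.58) and S100a8 (0.75) were nearest to Ly6c2, where the median was 4.30. S100a9 and S100a8 are in the list of neutrophil markers. Hpgd (0.26), Cyp2g1 (0.31) and Icosl (0.32) were nearest to Csf1r, beside a median of 1.05. Cyp2g1 is in the list of sustentacular and microvillar genes. C1qc (0.17), Taldo1 (0.18) and Trem2 (0.21), the last a lipid-sensing receptor that signals through Tyrobp, were nearest to C1qa, beside a median of 0.47.

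The second comparison asked whether odor changed the 9 genes relative to vehicle. Within titled GFP+ libraries, 0 of 9 passed in limma over 16 arrays (0 at an unadjusted p under 0.05; 0% of all genes called) and 0 of 9 over 14 (1 at an unadjusted p under 0.05; 0.0359% of all genes called). Directions depended on vehicle pool 3, since 9 of 9 differences were positive with it and 2 of 9 without it, at medians of 0.34 and -0.74. Comparisons of odor with vehicle and of the fractions share libraries, so they are not independent.

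Tyrobp came closest within titled GFP+, at 8.20 ± 0.59 in odor (SD, n = 4) and 8.94 ± 0.26 in vehicle without pool 3 (SD, n = 3), which do not overlap. Its difference was -0.75 ± 0.29 (SE, limma adjusted p = 0.539), and 0.28 ± 0.73 (SE, limma adjusted p = 1.00) with that pool. Fcer1g, too, was lower in each odor library than in each vehicle library other than replicate 3, by -1.0 on average, with a 95% interval from -2.16 to 0.15 (limma adjusted p = 0.714). Groups of all genes did not overlap in that direction for 3.45% of genes. For Ly6c2 the interval was -2.30 to 0.01 over 14 arrays and -2.76 to 5.42 over 16.

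Within titled GFP- libraries 0 of 9 passed in limma over 16 arrays (0 at an unadjusted p under 0.05; 0.0103% of all genes called) and 0 of 9 over 14 (0 at an unadjusted p under 0.05; 0.0256% of all genes called, 0.0205% higher). With the replicate number as a block over 16 arrays 0 of 9 passed as well (2 at an unadjusted p under 0.05), and 0.0205% of all genes did, all of them higher. All 9 differences were negative over 16 arrays, and 7 of 9 over 14. Ly6c2 was 4.02 ± 0.48 in odor (SD, n = 4) and 6.34 ± 3.23 in vehicle (SD, n = 4), or 4.73 ± 0.35 without pool 3 (SD, n = 3). Its odor libraries were all below its vehicle libraries, as for 1.89% of all genes over 16 arrays and 3.83% over 14, with a difference of -2.32 ± 1.92 (SE, limma adjusted p = 0.869) over 16 arrays and -0.70 ± 0.54 (SE, limma adjusted p = 0.811) over 14. Without pool 3 all of these Ly6c2 values, from 3.33 to 5.12, lay below the median of the negative probe sets, so neither their order nor that difference is measured above background. C1qb had the smallest adjusted p over 16 arrays, at -0.84 ± 0.40 (SE, limma adjusted p = 0.792).

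Averaged over both fractions of a pool, which does not depend on which title is right, 0 of 9 passed in limma over 16 arrays (0 at an unadjusted p under 0.05; 0.0308% of all genes called) and 0 of 9 over 14 (1 at an unadjusted p under 0.05; 0.641% of all genes called). The pool mean of Ly6c2 was 8.11 ± 0.85 in odor (SD, n = 4 pools) and 8.60 ± 1.00 in vehicle (SD, n = 4 pools). The difference of -0.49 had a 95% interval from -3.38 to 2.40 over 16 arrays. Over 14 arrays it was -0.92, with an interval from -1.74 to -0.11 (limma adjusted p = 0.349). These tests and intervals took the 2 libraries of a pool as separate, so they do not measure the spread between pools. Over 16 arrays the opposite fractions of vehicle pool 3 also widened them. Without that pool the vehicle pool mean was 9.03 ± 0.63 (SD, n = 3 pools). Pool means then overlapped, with odor up to 8.78 and vehicle from 8.58. C1qa had the narrowest interval of the 9 over 16 arrays, from -0.52 to 0.22. The fraction difference itself did not pass as different between odor and vehicle for any of the 9 (limma adjusted p = 0.999 or more over 16 and over 14 arrays, with 0 and 1 at an unadjusted p under 0.05; 0.00513% and 0.0103% of all genes called). Tyrobp was the 1 of these, at -0.88 with a 95% interval from -1.74 to -0.01 over 14 arrays.

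**Figure D4:**
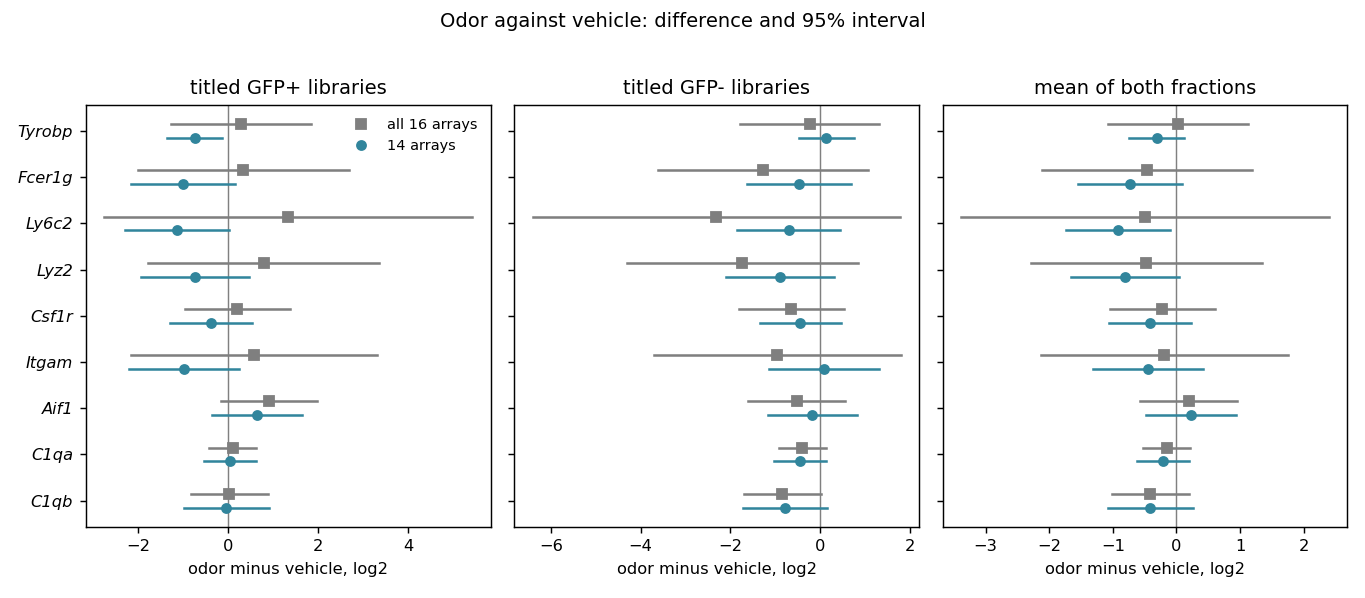
Odor minus vehicle (horizontal axis, log2) for each of the 9 genes (vertical axis), within titled GFP+ libraries, within titled GFP- libraries and for the mean of both fractions. Grey squares are all 16 arrays and teal circles the 14 without vehicle pool 3, with 95% intervals from limma. For the mean of both fractions these intervals take the 2 libraries of a pool as separate. Intervals are wider with that pool, and 0 of 9 genes passed the threshold in any panel.

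In order of group means without vehicle pool 3, Tyrobp, Fcer1g, Lyz2, Ly6c2, Csf1r and Itgam all had vehicle titled GFP+ first and odor titled GFP+ next, followed by the 2 groups titled GFP-. In none of these 6 genes did the first pair in that order, or the last pair, pass as different. For Ly6c2 the means were 13.34 ± 0.92 (SD, n = 3), 12.19 ± 1.24 (SD, n = 4), 4.73 ± 0.35 (SD, n = 3) and 4.02 ± 0.48 (SD, n = 4). C1qa had a different order, with vehicle titled GFP- first at 7.43 ± 0.31 (SD, n = 3) and odor titled GFP- last at 6.97 ± 0.43 (SD, n = 4), and none of its 4 groups passed as different.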

How the data were processed

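The authors deposited log2 values of 28846 probe sets on 16 arrays, and the submitters' processing notes name Affymetrix Expression Console as the software. Version, summarization method and build: not given in the sources used here. Values above 16, the limit of a 16-bit scanner on the log2 scale, came from a step that is not known, so differences are given and not folds. Per the labels' protocols, cRNA was made from 50 to 100 ng of RNA. Arrays have no read depth, and their number limits precision. Of the probe sets 19572 had 1 gene symbol and 9274 none, which gave 19505 genes.

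Groups followed the titles. Differences were tested with limma 3.58.1 under R 4.3.3 by lmFit and eBayes as two-sided tests, with 4 group means in 1 model and no block, with Benjamini-Hochberg adjustment over all genes and a threshold of 0.05. Errors of differences are limma's standard errors. Alternatives were the replicate block, centring, quantile normalization, a filter on low values and leaving out libraries.

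The 2 libraries of a pool come from the same mice, so the pool is a true pairing for fraction differences. Deviations from group means correlated at 0.127 to 0.253 within odor pools and -0.754 to -0.0645 within vehicle pools. The vehicle means include pool 3, whose libraries ran opposite. That pool gave the -0.754 and shifted the means for the other vehicle pools, so the vehicle values do not show how fractions pair.

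Members, lists, tests and the 14-array fits were chosen with earlier results of these data known. Named genes were the 9 members, their relatives, S100a5, Omp, up to 4 genes per list by p in the odor fraction comparison, and the 3 nearest patterns of 4 members. The labels give no scan or sort date, so batches were not tested.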

Additional observations from a re-analysis of the deposited data

Results flagged for a closer look

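In 7 of the 36 groups of 4 libraries looked at (9 genes in 4 groups), 1 library lay far from the other 3; chance alone does this in about 1 in 20 groups, and the 9 genes share their libraries. Of these, 6 were the libraries of vehicle pool 3. Titled GFP+, that pool was far below the others for Tyrobp (4.85, others from 8.74), Fcer1g (7.52, others from 12.80), Lyz2 (8.42, others from 14.22) and Ly6c2 (3.44, others from 12.62). Titled GFP-, it was far above the others for Ly6c2 (11.17, others up to 5.12) and Itgam (9.14, others up to 5.03). The last was Itgam in odor replicate 3 titled GFP-, at 4.75 where the others lay between 5.12 and 5.18.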

How the results depend on the processing

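The results rest on 3 or 4 pools per group, on titles that S100a5 went against and on 1 pool that ran opposite, and several genes lay near the negative probe sets. For the odor fraction difference 5 members and 1359 genes were called over 16 arrays. Pools as a replicate block left 0 members and 2 genes, and centring gave 5741 genes. The 14 arrays gave 2570 genes, 10078 when centred and 2645 with the block. In vehicle 0 members and 0 genes became 6 members and 2180 genes on the 14 arrays, 6 and 8397 when centred, and 6 and 2314 with the block. Of odor against vehicle, counts of genes went from 0 in titled GFP+ to 7 (14 arrays), 8 (centred) and 1 (block). In titled GFP- they went from 2 to 4 with the block over 16 arrays, and to 5, 5 and 6 over 14. For the change of the fraction difference they went from 1 to 0 with the block over 16 arrays, and to 2 and 2 over 14 (as deposited and centred). For the mean of both fractions they went from 6 to 2 when centred, 3 with quantile normalization, 26 with the block and 2 on pool means, an alternative added after seeing the data, and over 14 arrays to 125, 130 and 65. The cause of these changes was not tested. No member was called in any of these odor comparisons.

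Leaving out 1 library at a time gave 0 to 6 members and 2 to 2184 genes for the odor fraction difference over 16 arrays, and 5 to 8 members and 2043 to 2609 genes over 14. The 5 odor calls were lost over 16 arrays without odor replicate 1, 2 or 3 of either title or replicate 4 titled GFP-, and that of Tyrobp also without vehicle replicate 1 or 2 titled GFP-. The differences themselves kept their size in these fits, such as 2.53 to 2.96 for Tyrobp and 7.80 to 8.76 for Ly6c2. Without vehicle replicate 3 titled GFP+ alone, 6 members and 2184 genes were called. In vehicle the ranges were 0 to 5 members and 0 to 1163 genes over 16 arrays, and 5 to 6 and 1644 to 2267 over 14. For titled GFP+ they were 0 to 3 genes and 0 to 10, for titled GFP- 1 to 5 and 1 to 6, for the change of the fraction difference 0 to 2 and 1 to 3, and for the mean of both fractions 2 to 74 and 54 to 159 (16 and 14 arrays). Members called in these comparisons stayed at 0 in each such fit.

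The numbers of replicates are shared by the treatments with no source that pairs them. Deviations of same-numbered libraries correlated at -0.198 to 0.432 in titled GFP+ and -0.164 to 0.129 in titled GFP-, and the block on those numbers gave the counts above. No called member turned its direction under any alternative.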
